A study of Mus musculus with 17 samples.

Results

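The genes described here were 9 complement components and regulators that mesenchymal stroma is known to express, namely C1s1, C1ra, C2, C4b, C3, Cfb, Cfd, Serping1 and Clu. They were listed by name with earlier results of these data known, and were matched by gene identifier. They make up 9 of the 55335 genes counted in 17 bulk RNA-seq libraries. The libraries came from bone of mice that carried no mutation (Cxcr4+/+, called WT), or the 1013 mutation of Cxcr4 on a single allele (+/1013) or on both (1013/1013). The 1013 allele is a knock-in that models WHIM syndrome, in which the chemokine receptor CXCR4 lacks the end of its cytoplasmic tail and signals too long after ligand binding. The allele is carried from the germline in every cell, and the labels name no treatment. Per the study's methods, mice were adult female littermates unless stated otherwise. A pair of cell types was sorted from the bone fraction left after flushing the marrow and digestion with collagenase. Osteoprogenitor cells (OPCs) were gated as CD45-, TER119-, CD31-, Sca-1- and CD51+, with or without PDGFRα. Skeletal stromal/stem cells (SSCs) were gated as CD45-, TER119-, CD31-, Sca-1+, CD51+ and PDGFRα+. Each of the 6 groups had 3 libraries, apart from the 1013/1013 SSCs with 2, and a library was made from sorted cells. The labels do not say which mice gave a library, while the paper describes the libraries as biological replicates, each from 3 mice pooled, so the p-values measure the spread between pools rather than between single mice.

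Complement is a cascade of plasma proteases that tags surfaces for removal. C1r and C1s are the proteases of the classical C1 complex, in which C1r activates C1s, and C1s cleaves C4 and C2 to form the classical C3 convertase. Factor D cleaves factor B on C3b to build the alternative C3 convertase, so that C3 is the protein on which the pathways meet. The C1 inhibitor, encoded by Serping1, blocks C1r and C1s, and clusterin, encoded by Clu, keeps the terminal complex from inserting into membranes. Liver makes most circulating complement, while fibroblasts, adipocytes and macrophages make part of it locally, and adipocytes are the classic source of factor D.

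On the mm10 build, C3 lies on the minus strand at chr17:57203970-57228136. C4b (chr17:34728380-34743882), Cfb (chr17:34856374-34862518) and C2 (chr17:34862604-34898265) are neighbours in the major histocompatibility complex, all on the minus strand. C1ra (chr6:124512405-124523443, plus strand) and C1s1 (chr6:124530345-124542359, minus strand) are neighbours too. Cfd lies at chr10:79890853-79892655 (plus), Serping1 at chr2:84765387-84775444 (minus) and Clu at chr14:65968483-65981547 (plus). A read-through gene model of the same strand, Gm20547, covers 79.5% of the exon bases of Cfb and 42.8% of those of C2 and had 0 counts in all 17 libraries, and a counter can set such reads aside as ambiguous, so that the levels of C2 and Cfb are uncertain. For C1s1, 18.4% of exon bases overlap Gm16567 on the other strand, and the library kit does not mark strand.

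The promoters of C1s1 and C1ra are printed because these members were called between the cell types under every setting tried, and that of C3 because its level spread most within OPC groups. Promoter windows run from 250 bases before to 50 after the RefSeq gene start (GRCm38.p6) and were at hand for 4 of the 9 members. Each is given 5′ to 3′ in the direction of the gene, with motif matches in capitals. The C3 window is chr17:57228087-57228386 on the minus strand, the first of the C1s1 windows chr6:124542310-124542609 on the minus strand and the C1ra window chr6:124512371-124512670 on the plus strand. The C1ra gene span given above begins at chr6:124512405, upstream of the RefSeq start used here. Most of the C1ra window, with its motif matches, therefore lies inside that span.
C3: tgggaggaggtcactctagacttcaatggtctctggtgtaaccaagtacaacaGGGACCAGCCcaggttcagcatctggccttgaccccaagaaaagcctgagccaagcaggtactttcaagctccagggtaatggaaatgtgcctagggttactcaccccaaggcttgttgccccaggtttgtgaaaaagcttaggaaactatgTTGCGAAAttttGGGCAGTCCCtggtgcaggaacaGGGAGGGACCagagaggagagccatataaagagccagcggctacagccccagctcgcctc
C1s1: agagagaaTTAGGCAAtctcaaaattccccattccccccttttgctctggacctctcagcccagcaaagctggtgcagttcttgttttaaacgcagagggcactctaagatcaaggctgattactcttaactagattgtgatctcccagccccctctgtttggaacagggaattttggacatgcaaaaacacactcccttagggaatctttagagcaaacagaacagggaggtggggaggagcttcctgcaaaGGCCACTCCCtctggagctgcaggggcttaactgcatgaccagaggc
C1ra: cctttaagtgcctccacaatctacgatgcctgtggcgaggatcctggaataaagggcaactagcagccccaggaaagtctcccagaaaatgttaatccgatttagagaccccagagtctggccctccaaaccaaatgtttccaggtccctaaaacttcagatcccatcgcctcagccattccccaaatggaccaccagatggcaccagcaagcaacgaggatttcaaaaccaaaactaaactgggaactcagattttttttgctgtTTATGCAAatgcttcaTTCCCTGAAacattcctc
On both strands, 4 motifs were searched. The NF-kappa-B motif matched 3 times in the C3 window, from positions -197, -33 and -10 relative to the start, and once in the C1s1 window at +4, and 20.7% of the 32851 mouse promoter windows hold it. The C/EBP motif TTGCNNAA matched at -45 in C3, -242 in C1s1 and +17 in C1ra (10.8% of windows). The STAT motif TTCNNNGAA matched at +33 in C1ra (8.3% of windows), and the interferon-stimulated response element matched in none of the 3 (3.4% of windows). No match was found in the Cfd window. No listed match overlaps another, and a match describes letters, not binding.

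OPC libraries held 64099849 to 92683497 gene counts and SSC libraries 44217695 to 50509592. Levels are CPM, the counts of a gene scaled to a common library size, with library sizes adjusted by the trimmed mean of M values (TMM) over all 17 libraries, on which 3 counts equal 0.0407 to 0.0628 CPM in OPCs and 0.0449 to 0.0575 CPM in SSCs. The sort labels matched their markers, since Ly6a, which encodes Sca-1, was at 0.569 to 12.4 CPM in OPCs and at 386 to 1450 CPM in SSCs, and Col1a1, the main bone collagen gene, was at 94200 to 292000 CPM in OPCs and at 1010 to 10500 CPM in SSCs. A pair of OPC libraries stood apart, WT replicate 3 and 1013/1013 replicate 2, in which 10 leukocyte and macrophage markers summed to 8980 and 6830 CPM, against 48.3 to 218 CPM in the other 7. Ptprc, which encodes the CD45 that the sort excluded, was at 52.8 and 118 CPM there and at 0.0194 to 2.84 CPM in the other OPC libraries. WT SSC replicate 3 had the highest sum among SSCs, at 2620 CPM, with Ptprc at 120 CPM. The near-identical copies C4a, C1rb and C1s2 of members held at most 0.929, 0.678 and 0.959 CPM in any library.

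Summed over the 9 members, complement RNA made up between 0.0627% and 0.18% of an OPC library and between 0.78% and 1.8% of an SSC library, with no overlap. Per kilobase of exon, the inhibitors led in every group. In WT SSCs, Clu stood at 1160 ± 496 CPM per kb and Serping1 at 863 ± 176 CPM per kb (SD, n = 3), and these neighbours overlapped between libraries. C3 (130 ± 30.5), C4b (96 ± 23.4), C1s1 (91 ± 27.6) and C1ra (63.6 ± 15.2 CPM per kb) followed, each overlapping the next. Cfd (3.87 ± 5.67), C2 (1.96 ± 0.93) and Cfb (1.62 ± 0.161 CPM per kb) came last and also overlapped in turn, and C1ra and Cfd did not. In WT OPCs, Serping1 (178 ± 152) and Clu (140 ± 37.8 CPM per kb) again led and overlapped, while Cfd (0.106 ± 0.116) and Cfb (0.0642 ± 0.0556 CPM per kb) were lowest. Serping1 and Clu were the first 2 genes and Cfb, C2 and Cfd among the last 4 in each of the 6 groups.

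SSCs held more complement RNA than OPCs in each genotype. Between 6 and 8 of the 9 members rose, none fell, and the proteases C1s1 and C1ra, the alternative pathway gene Cfb and the inhibitors Serping1 and Clu rose in all 3 genotypes. In WT, C1s1 was 22.9-fold, Cfb 25.1-fold and C1ra 9.59-fold higher in SSCs, and in 1013/1013 mice C1s1 was 38.7-fold higher. In bulk libraries, more cells that express a gene and more RNA per cell cannot be told apart. A gene was called where edgeR's quasi-likelihood test, fitted on all 17 libraries and 20238 genes, put it under 0.05 after Benjamini-Hochberg adjustment and the levels differed 1.5-fold or more. All 9 members passed the filter on low counts. In WT, 6 of 9 members were called higher in SSCs, where 5.55% of all genes were (11.4% in either direction). In +/1013 mice 8 of 9 were called higher, against 6.44% of all genes (12.5% in either direction), and in 1013/1013 mice 6 of 9, against 6.94% (13.1%). Because the members were chosen with earlier results of these data known, these shares are a description and no independent test. The members' median log2 fold change was 3.26, 3.31 and 3.85 in WT, +/1013 and 1013/1013, and the median of all genes tested 0.17, 0 and -0.2. No comparison of 3 with 3 libraries can give an exact permutation p below 0.1, or of 3 with 2 below 0.2, so calls rest on the fit across all genes.

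**Figure D1:**
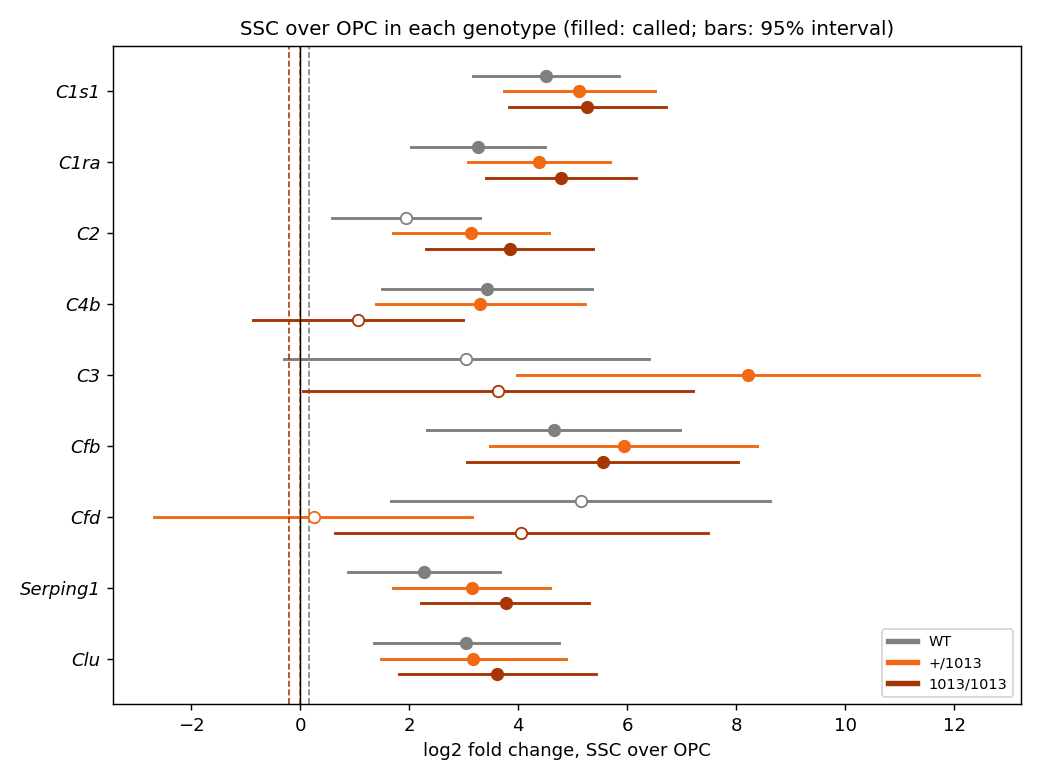
Log2 fold change of each member between SSCs and OPCs (x axis), in WT, +/1013 and 1013/1013 mice. Points are fitted values, filled where called, bars are 95% intervals, and dashed lines are the medians of all genes tested. C1s1, C1ra, Cfb, Serping1 and Clu are filled in all 3 genotypes, and the C3 and Cfd intervals are the widest.

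C1s1, the C1 protease that cleaves C4 and C2, was at 314, 353 and 188 CPM in WT SSCs, 672, 581 and 597 CPM in +/1013 SSCs and 553 and 364 CPM in 1013/1013 SSCs. In OPCs it was at 22.8, 9.5 and 5 CPM in WT, 33.5, 12 and 7.48 CPM in +/1013, and 14.6, 12 and 8.9 CPM in 1013/1013. Every SSC library was above every OPC library. Its log2 fold change was 4.51 ± 0.63 in WT (SE, edgeR adjusted p = 0.000559), 5.12 ± 0.64 in +/1013 (0.000171) and 5.27 ± 0.67 in 1013/1013 (0.000212). C1s1 was called in all 3 genotypes under each of the 26 alternative settings.

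C1ra, which activates C1s inside the C1 complex, was at 193, 233 and 143 CPM in WT SSCs, 516, 325 and 497 CPM in +/1013 SSCs and 464 and 326 CPM in 1013/1013 SSCs. Its OPC levels were 35.4, 8.64 and 15.2 CPM in WT, 40.2, 12.1 and 12 CPM in +/1013, and 19.9, 13.4 and 9.43 CPM in 1013/1013. The cell types again did not overlap, and the first library of WT and of +/1013 was the highest of the OPCs for C1ra and C1s1 alike. C1ra had a log2 fold change of 3.26 ± 0.58 in WT (edgeR adjusted p = 0.0027), 4.38 ± 0.61 in +/1013 (0.00036) and 4.79 ± 0.64 in 1013/1013 (0.000315).

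C4b, the mouse C4 of the classical convertase, was at 681, 546 and 414 CPM in WT SSCs, 455, 347 and 851 CPM in +/1013 SSCs and 222 and 394 CPM in 1013/1013 SSCs. OPC libraries held 105, 31.3 and 15.6 CPM in WT, 74.9, 56.8 and 34.8 CPM in +/1013, and 363, 50.7 and 29.1 CPM in 1013/1013. The first 1013/1013 OPC library lay within the range of the 1013/1013 SSCs, and the cell types did not overlap in WT or +/1013. The log2 fold change was 3.43 ± 0.9 in WT (edgeR adjusted p = 0.0244), 3.31 ± 0.89 in +/1013 (0.0263) and 1.06 ± 0.9 in 1013/1013 (0.441). Without that 1013/1013 OPC library, replicate 1, it was 2.97 and called (edgeR adjusted p = 0.0288). The WT call was lost without WT OPC replicate 2 or 3 or WT SSC replicate 1 or 2 (edgeR adjusted p between 0.0519 and 0.0971), and the +/1013 call without any +/1013 OPC library or +/1013 SSC replicate 3 (0.0502 to 0.102).

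C2, the serine protease of the classical convertase, was low, at 6.78, 11.5 and 4.43 CPM in WT SSCs, 19.5, 18.1 and 19.5 CPM in +/1013 SSCs and 14.8 and 16.1 CPM in 1013/1013 SSCs. Its OPC levels ran from 0.639 to 4.61 CPM, the highest in +/1013 replicate 1, and each SSC group lay above the OPC group of its genotype. The rise was called in +/1013 (log2 fold change 3.13 ± 0.66, edgeR adjusted p = 0.00725) and in 1013/1013 (3.85 ± 0.71, 0.00341). In WT the log2 fold change was 1.95 ± 0.63 with an edgeR adjusted p of 0.0634, which fell below the threshold with DESeq2 (0.0116), with 2 other settings of edgeR (0.0265 and 0.0297), and without +/1013 OPC replicate 1 (0.017) or 2 (0.0388).

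Of the members, C3 spread most between OPC libraries of a genotype. It was at 657, 833 and 519 CPM in WT SSCs, 981, 909 and 1590 CPM in +/1013 SSCs and 1280 and 609 CPM in 1013/1013 SSCs. In OPCs it was at 7.28, 2 and 233 CPM in WT, 5.27, 3.69 and 2.69 CPM in +/1013, and 5.7, 220 and 2.87 CPM in 1013/1013. The 233 and 220 CPM belong to WT replicate 3 and 1013/1013 replicate 2, the libraries with high leukocyte markers, while the other 7 OPC libraries stayed at 2 to 7.28 CPM. Lyz2, a lysozyme gene of myeloid cells, was at 4620 and 3710 CPM in that pair and at 19.7 to 125 CPM in the others. All 10 markers of the list were above 3 counts in the pair, and Adgre1, a macrophage receptor gene, was at or under 3 counts in 6 of the other 7. The part of such cells in the C3 of these libraries was not tested. In SSCs the order was different, since WT replicate 3, with the highest marker sum of 2620 CPM, had the lowest C3, and +/1013 SSCs, with sums of 47 to 88.2 CPM, had 909 to 1590 CPM.

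Every SSC library nevertheless lay above every OPC library for C3. The log2 fold change was 8.22 ± 1.98 in +/1013 (edgeR adjusted p = 0.0147), 3.05 ± 1.56 in WT (0.226) and 3.63 ± 1.67 in 1013/1013 (0.171). Without WT OPC replicate 3 the WT value was 7.19 and called (0.0254), and without 1013/1013 OPC replicate 2 the 1013/1013 value was 7.81 and called (0.0158), all by edgeR. The +/1013 call was lost without +/1013 OPC replicate 2 (8.17, edgeR adjusted p = 0.0629) or 3 (8.01, 0.0685). The pooled within-group SD of log2(CPM + 1) of C3 was 2.64 in OPCs and 0.49 in SSCs, where the median gene of at least 10 CPM had 0.36 in both.

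**Figure D2:**
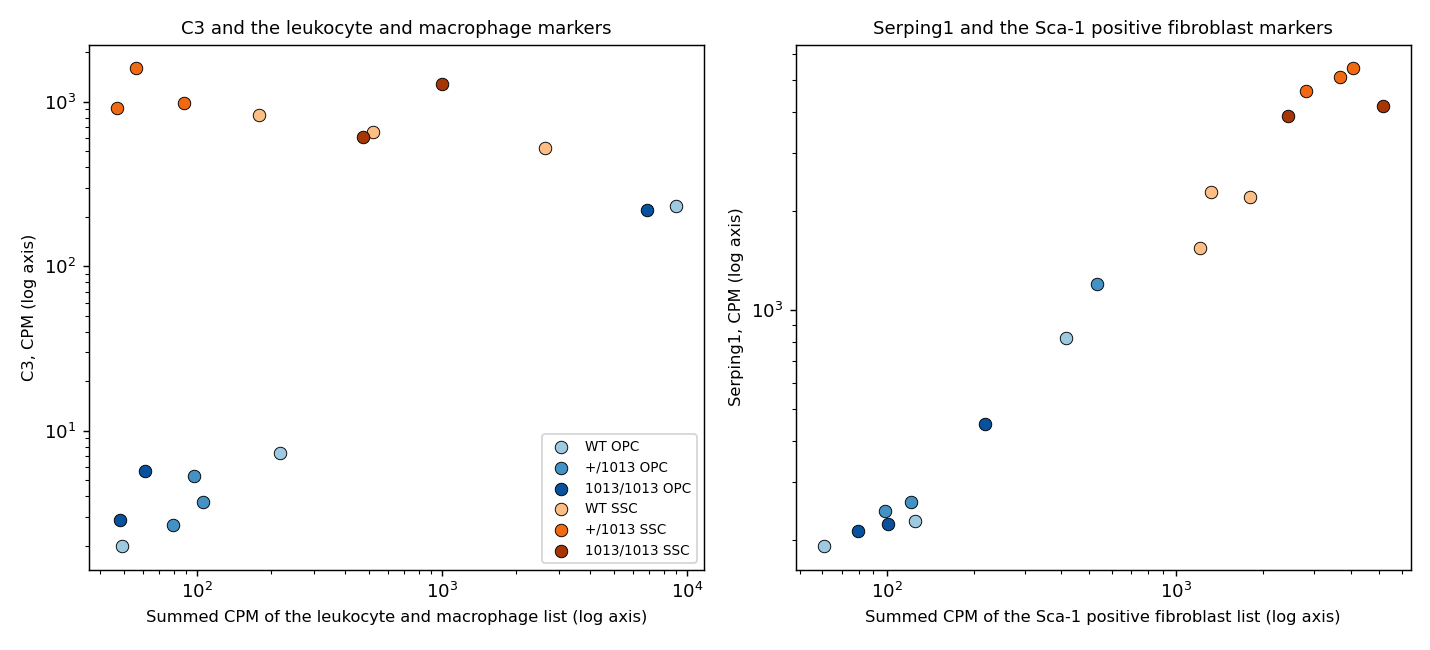
Left, C3 in CPM against the summed CPM of 10 leukocyte and macrophage markers. Right, Serping1 in CPM against the summed CPM of 6 Sca-1 positive fibroblast markers. Each point is a library, colours are the 6 groups and all axes are logarithmic. The OPC libraries at 233 and 220 CPM of C3 are the ones with the highest leukocyte sums, and the OPC libraries at 823 and 1200 CPM of Serping1 are those with the highest fibroblast sums of their cell type.

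Per kilobase, the alternative pathway genes were with C2 the lowest 3 members in every SSC group. Cfb, which encodes factor B, was near the limit of detection in OPCs, at 0 to 0.461 CPM, and at 4.27, 5.11 and 4.38 CPM in WT SSCs, 12.1, 13.8 and 15.1 CPM in +/1013 SSCs and 7.19 and 8.62 CPM in 1013/1013 SSCs. No SSC library overlapped an OPC library, and the 3 SSC genotypes did not overlap each other. The log2 fold change of Cfb between the cell types was 4.65 ± 1.08 in WT (edgeR adjusted p = 0.0134), 5.94 ± 1.14 in +/1013 (0.00395) and 5.55 ± 1.16 in 1013/1013 (0.00691). With only the groups compared in the fit, the WT and 1013/1013 calls were lost (edgeR adjusted p = 0.0632 and 0.051).

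Cfd, which encodes factor D or adipsin, was at 9.58, 1.02 and 0.0949 CPM in WT SSCs, 0.942, 1.59 and 0.646 CPM in +/1013 SSCs and 14 and 2.59 CPM in 1013/1013 SSCs. OPC libraries held 0 to 1.4 CPM. Cfd was not called in any genotype, with log2 fold changes of 5.15 ± 1.62 in WT (edgeR adjusted p = 0.0564), 0.25 ± 1.36 in +/1013 (0.952) and 4.06 ± 1.59 in 1013/1013 (0.113). DESeq2 called it in WT (adjusted p = 0.000623) and in 1013/1013 (0.015), as did edgeR's bias-adjusted test (0.019 and 0.0181), and edgeR called it in WT without WT SSC replicate 3 (0.0334). The highest Cfd value, 14 CPM in 1013/1013 SSC replicate 1, was in the library with the highest sum of 7 adipocyte markers (781 CPM, against 75.1 to 413 CPM in the other SSCs), although Plin1 and Cidec, 2 lipid droplet genes of mature adipocytes, had 0 counts there. Whether adipocyte RNA set the Cfd level was not tested.

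Serping1 and Clu, the inhibitors, had the highest levels per kilobase. Serping1 was at 2200, 2280 and 1540 CPM in WT SSCs, 5420, 4620 and 5120 CPM in +/1013 SSCs and 4180 and 3880 CPM in 1013/1013 SSCs. Its OPC levels were 823, 229 and 192 CPM in WT, 1200, 260 and 245 CPM in +/1013, and 451, 223 and 213 CPM in 1013/1013. Every SSC library was above every OPC library, and each OPC genotype had its highest value in replicate 1. For Serping1 the log2 fold change was 2.27 ± 0.65 in WT (edgeR adjusted p = 0.0371), 3.15 ± 0.67 in +/1013 (0.00756) and 3.77 ± 0.72 in 1013/1013 (0.00408). The WT call was lost without WT OPC replicate 2 or 3 or any WT SSC library (edgeR adjusted p between 0.0556 and 0.133) and with only WT libraries in the fit (0.0525).

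Clu was at 5920, 3370 and 2680 CPM in WT SSCs, 4040, 9940 and 3860 CPM in +/1013 SSCs and 1370 and 10500 CPM in 1013/1013 SSCs. OPC libraries held 422, 629 and 390 CPM in WT, 410, 1030 and 533 CPM in +/1013, and 106, 707 and 635 CPM in 1013/1013. Clu did not overlap between cell types, yet the 1013/1013 SSC libraries were its lowest and highest SSC values. For Clu the log2 fold change was 3.05 ± 0.79 in WT (edgeR adjusted p = 0.0229), 3.18 ± 0.79 in +/1013 (0.018) and 3.62 ± 0.84 in 1013/1013 (0.013). Without 1013/1013 SSC replicate 2 it was 1.55 in 1013/1013 and not called (edgeR adjusted p = 0.214), and with only the groups compared in the fit the adjusted p was 0.154. In WT the call was lost without any WT OPC library or WT SSC replicate 1 (0.0602 to 0.0836), and in +/1013 without +/1013 OPC replicate 1 or 3 or +/1013 SSC replicate 2 (0.0599 to 0.0761).

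**Figure D3:**
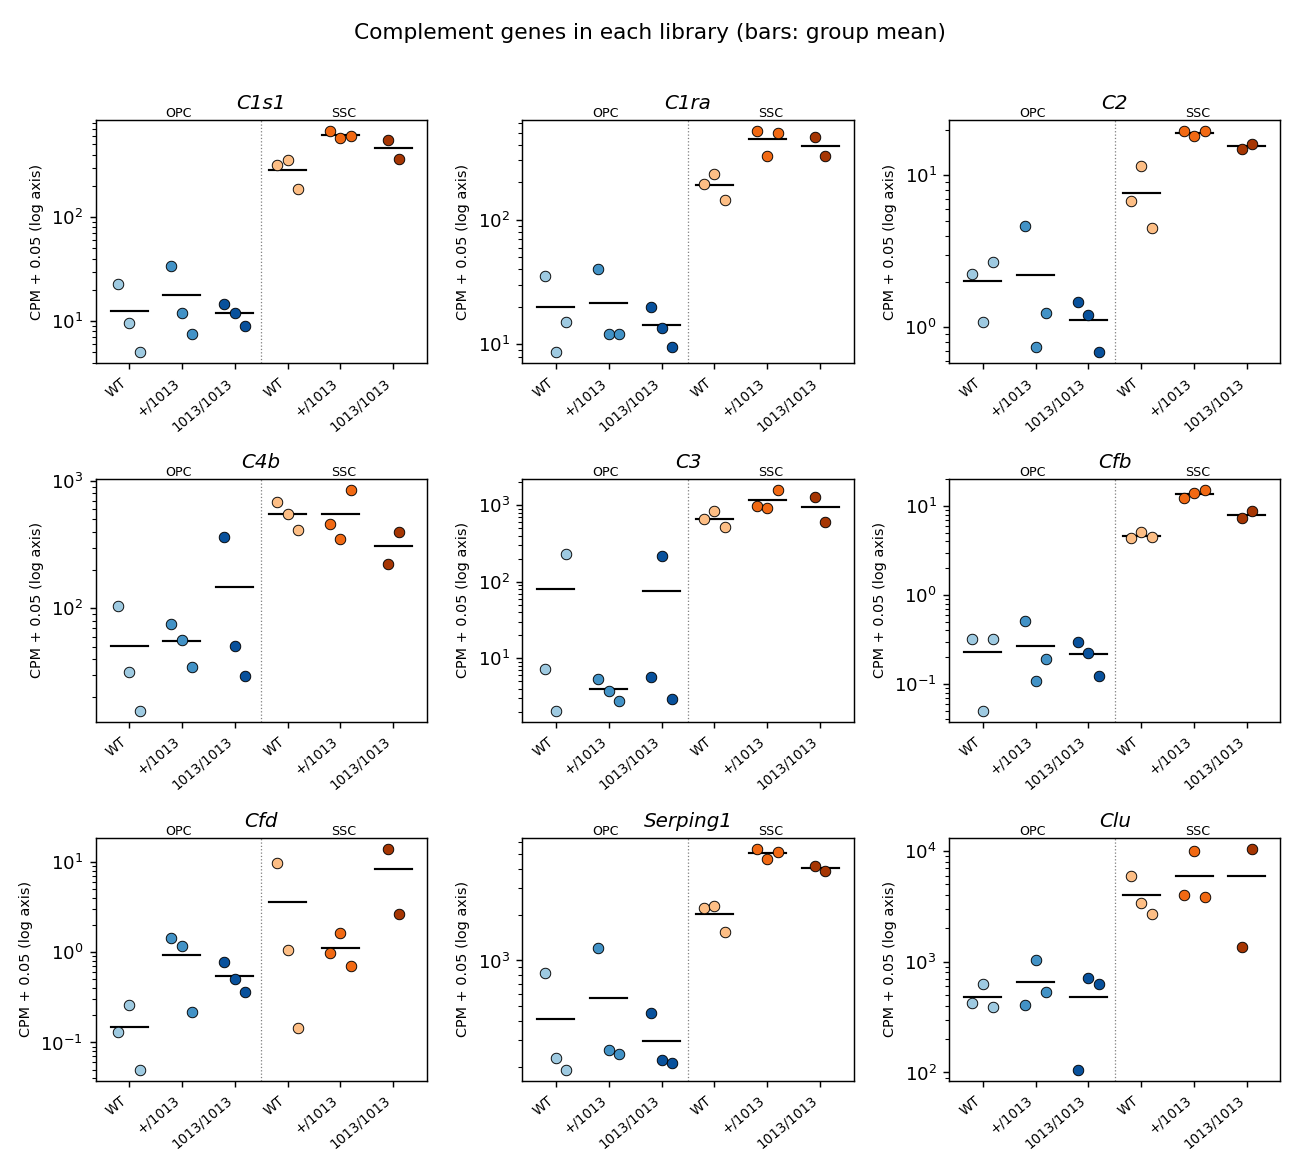
CPM + 0.05 of the 9 members in each library on logarithmic axes that differ between panels, with OPCs left and SSCs right of the dotted line in each panel and bars at the group means. C3 shows OPC points at 233 and 220 CPM above the other 7, C4b shows a 1013/1013 OPC point at 363 CPM among the SSC values, and Serping1 and Cfb are higher in +/1013 and 1013/1013 than in WT SSCs.

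Among OPCs, WT replicate 1 and +/1013 replicate 1 had the highest Serping1, C1s1 and C1ra. The same libraries had the highest sums of 6 Sca-1 positive fibroblast markers, 417 and 534 CPM, against 60.6 to 218 CPM in the other 7 OPC libraries, and Cd34, a surface glycoprotein gene of that list, was at 336 and 342 CPM there and at 36.1 to 163 CPM in the others. Ly6a was at 6.67 and 6.12 CPM in this pair, the highest value of each genotype, and at 0.569 to 12.4 CPM over all OPC libraries, below every SSC library. The part of fibroblasts in these values was not tested.

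In OPCs, no member was called between genotypes. None of the 9 passed in +/1013 against WT, 1013/1013 against WT or 1013/1013 against +/1013, where 0%, 0.00617% and 0% of the 16207 genes tested were called. By edgeR none had an unadjusted p under 0.05, and DESeq2 called none. Cfd was the single member without overlap, at 0.0815, 0.211 and 0 CPM in WT and 0.721, 0.458 and 0.311 CPM in 1013/1013 OPCs. In that comparison, 633 of the 16207 genes tested were higher and 600 lower without overlap. The median OPC log2 fold change of the members was 0.28 in +/1013 and -0.1 in 1013/1013 against WT. Libraries of the same genotype spread widely for some members, as in Serping1, which ran from 192 to 823 CPM in WT and from 245 to 1200 CPM in +/1013. For such members a small difference between genotypes could be missed, and how small a difference could be detected was not tested.

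In SSCs, the C1 proteases, C2, Cfb and the C1 inhibitor had higher TMM-scaled levels in the mutants than in WT without overlap. No member was called by the main test. Serping1 was at a mean of 2010 ± 409 CPM in WT, 5050 ± 406 CPM in +/1013 and 4030 ± 212 CPM in 1013/1013 SSCs (SD, n = 3, 3 and 2). Cfb stood at 4.59 ± 0.454, 13.7 ± 1.47 and 7.9 ± 1.01 CPM in the same order. C1s1 was at 285 ± 86.4, 617 ± 48.6 and 458 ± 134 CPM and C1ra at 190 ± 45.3, 446 ± 105 and 395 ± 97.6 CPM. The rest of the members showed no such separation except in +/1013 for C3, at 670 ± 157 CPM in WT against 1160 ± 372 CPM, and in 1013/1013 for C4b, which was lower at 308 ± 121 CPM against 547 ± 133 CPM in WT. Over all genes, 4302 of 17659 were lower without overlap in 1013/1013 than in WT SSCs.

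Against WT, 6 of 9 members were higher without overlap in +/1013 SSCs, where 14.5% of all genes were, and 5 of 9 in 1013/1013 SSCs, where 16.7% were. These counts rest on TMM scaling. In CPM without it, C1s1 overlapped in 1013/1013, at 682 and 387 CPM against 266 to 485 CPM in WT. C3 likewise overlapped in +/1013, at 975 to 1850 CPM against 738 to 1140 CPM in WT. The members' median log2 fold change was 1.1 and 0.79, and that of all 17659 genes -0.11 and -0.23. In +/1013 the log2 fold change was 1.31 ± 0.23 for Serping1 (SE, edgeR adjusted p = 0.0932), 1.55 ± 0.32 for Cfb (0.117), 1.22 ± 0.28 for C1ra (0.134), 1.1 ± 0.28 for C1s1 (0.157) and 1.31 ± 0.37 for C2 (0.166). These 5 had an unadjusted p under 0.05, which 17.3% of all genes had (7.65% with a higher level). The log2 fold change of C3 was 0.77 ± 0.36 (0.323), of Clu 0.56 ± 0.72 (0.778), of Cfd -1.75 ± 1.41 (0.592) and of C4b -0.01 ± 0.38 (0.996), again with edgeR adjusted p in brackets. Over all genes, 0.0736% were called.

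In 1013/1013 SSCs the log2 fold change against WT was 1.02 ± 0.25 for Serping1 (edgeR adjusted p = 0.132), 1.08 ± 0.3 for C1ra (0.16) and 1.04 ± 0.4 for C2 (0.235). These 3 had an unadjusted p under 0.05, as did 18.3% of all genes (8.37% with a higher level), and 0% of all genes were called. It was 0.79 ± 0.34 for Cfb (0.274), 0.71 ± 0.31 for C1s1 (0.275) and -0.82 ± 0.44 for C4b (0.341). For C3 it was 0.52 ± 0.4 (0.491), for Cfd 1.27 ± 1.51 (0.658) and for Clu 0.57 ± 0.79 (0.713). Between 1013/1013 and +/1013 SSCs no member was called, nor was any other gene (0%), and none of the 9 had an unadjusted p under 0.05 by edgeR or a call by DESeq2.

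The call depended on the test. DESeq2 called 5 members higher in +/1013 than in WT SSCs, where it called 2.79% of all genes higher. They were Cfb (log2 fold change 1.49, DESeq2 adjusted p = 7.29e-10), Serping1 (1.25, 6.88e-06), C1ra (1.15, 0.0129), C2 (1.25, 0.0236) and C1s1 (1.03, 0.0316). In 1013/1013 it called Serping1 (0.97, 0.00401) and Cfb (0.74, 0.0231), against 4.08% of all genes called higher. By edgeR, leaving out 1013/1013 SSC replicate 2 brought C1ra (1.27, adjusted p = 0.0496) and Serping1 (1.04, 0.0489) past the threshold, in a fit where the lone remaining 1013/1013 library was assumed to vary like the other groups and 14.8% of all genes were called.

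**Figure D4:**
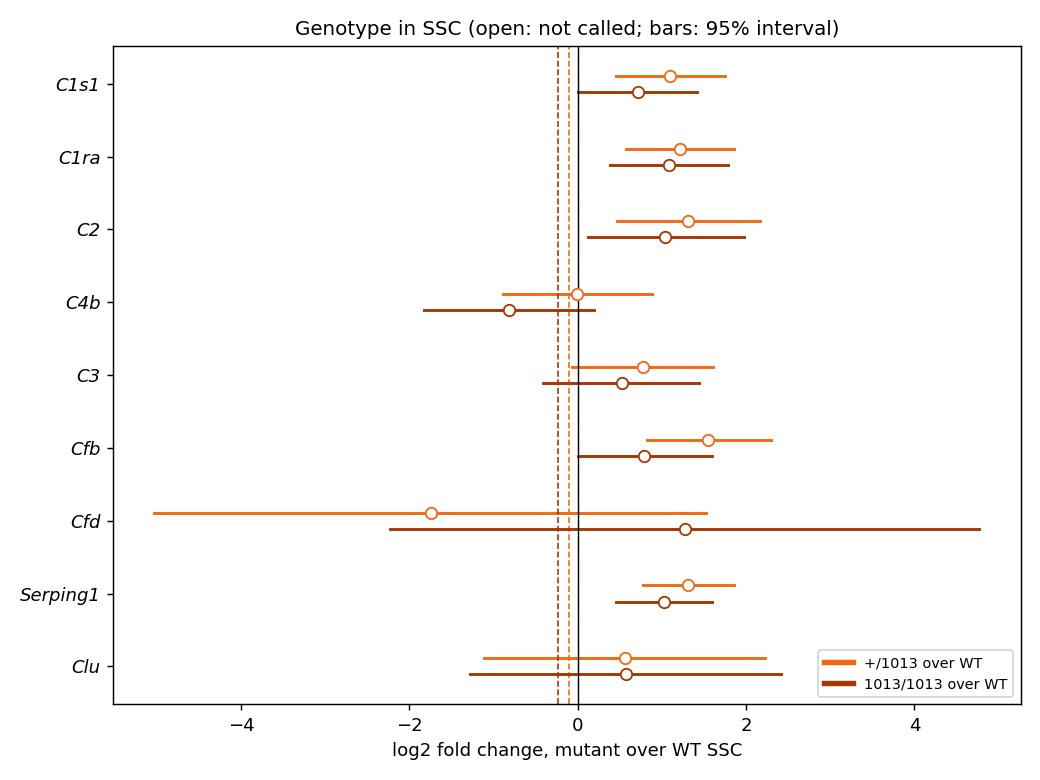
Log2 fold change of each member in +/1013 and in 1013/1013 SSCs over WT SSCs (x axis). Points are fitted values, open because none was called by edgeR, bars are 95% intervals, and dashed lines are the medians of all genes, -0.11 and -0.23. Serping1, C1ra and C2 have intervals above 0 in both mutants, and Cfd and Clu have the widest intervals.

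Other measures differed between WT and mutant SSC libraries as well. The summed level of 6 Sca-1 positive fibroblast markers was 1210 to 1800 CPM in WT, 2810 to 4070 CPM in +/1013 and 2430 and 5160 CPM in 1013/1013, with all 6 detected in each SSC library. Of these, Pi16, Cd34, Dpt and Ly6c1 were higher without overlap in both mutants. Dpp4 overlapped, at 35.7 to 66.8 CPM in WT and 24.5 to 167 CPM in the mutants, and Clec3b overlapped in +/1013 only. Ly6a was at 386 to 599 CPM in WT and 838 to 1450 CPM in the mutants. The other genes of the SSC gate did not rise with it. Itgav, which encodes CD51, was lower without overlap, at 49.5 to 59.7 CPM in WT and 17.8 to 35.8 CPM in the mutants. Pdgfra overlapped, at 340 to 414 CPM in WT and 341 to 522 CPM in the mutants. The sum of 5 osteoblast lineage markers was lower in the mutants, at 1920 to 4490 CPM against 8120 to 12100 CPM in WT. Col1a1 alone held 7540 to 10500 CPM of it in WT and 1010 to 2950 CPM in the mutants. Ibsp, Alpl and Bglap overlapped between WT and both mutants, and Sp7 was lower without overlap in +/1013 only. Reads assigned to no gene made up 3.68% to 4.15% of the total in WT SSCs and 1.5% to 2.69% in mutant SSCs, and 21449 to 22599 genes had a count in WT against 15748 to 19227 in the mutants. Leukocyte and macrophage markers summed to 179 to 2620 CPM in WT, 47 to 88.2 CPM in +/1013 and 474 and 1000 CPM in 1013/1013. In the library at 1000 CPM, replicate 1, Ptprc, Adgre1 and Csf1r were at or under 3 counts. The sum of 5 marrow reticular stroma markers was 557 to 1020 CPM in WT, 1110 to 1940 CPM in +/1013 and 1020 and 1410 CPM in 1013/1013. Cxcl12 alone held 350 to 692 CPM of it in WT and 797 to 1640 CPM in the mutants. Lepr, Kitl and Ebf3 overlapped between WT and both mutants, and Foxc1 was lower without overlap in +/1013 only. The sum of 7 adipocyte markers was 75.1 to 166 CPM in WT, 258 to 413 CPM in +/1013 and 190 and 781 CPM in 1013/1013, of which Lpl, a lipase gene, held 62.6 to 650 CPM, while Plin1 and Cidec were at no more than 0.498 and 1.4 CPM in any SSC library. Genotype and these differences between libraries cannot be told apart here, and the part of cell makeup in the levels of Serping1, Cfb, C1s1, C1ra and C2 was not tested. For 9 interferon and acute phase genes the sums overlapped, at 1770 to 2010 CPM in WT, 1880 to 2780 CPM in +/1013 and 1560 and 3230 CPM in 1013/1013, and Socs3 alone held 645 to 1360 CPM of them. Within that list, Cebpd, a C/EBP factor gene of the acute phase, was at 90.7 to 185 CPM in WT and 236 to 671 CPM in the mutants, and Irf1, an interferon response factor gene, at 160 to 182 CPM in WT and 201 to 643 CPM in the mutants. Neither overlapped with WT, and neither was called by edgeR (adjusted p between 0.107 and 0.252), and their part in the members' levels was not tested. Both were picked out after their values were seen.

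Whether the genotype effect differed between SSCs and OPCs was tested directly. No member was called for either mutant, where 0.084% and 0.153% of all genes were. For +/1013 the SSC effect minus the OPC effect was 5.16 ± 2.16 for C3 (log2, SE, edgeR adjusted p = 0.435) and -4.9 ± 2.03 for Cfd (0.432), the only members with an unadjusted p under 0.05. Of all 20238 genes, 2153 had such an unadjusted p. The C3 value fell to 1.03 without WT OPC replicate 3, the library with 233 CPM, and the Cfd value was -2.23 without WT SSC replicate 1, the library with 9.58 CPM. For 1013/1013 no member had an unadjusted p under 0.05 by edgeR, and DESeq2 called none.

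The other complement genes were called in both directions. Of 51 listed, 49 were matched and 39 passed the filter on low counts. In SSCs against OPCs, 4 were called higher and 3 lower in WT, 5 and 1 in +/1013, and 6 and 2 in 1013/1013. Of all genes, 5.55%, 6.44% and 6.94% were called higher in that order, and 11.4%, 12.5% and 13.1% in either direction. The median log2 fold change of the list was 0.79, 0 and -0.41 in the same order. No gene of the list was called between genotypes within a cell type by edgeR, and against WT SSCs 10 of 36 tested had an unadjusted p under 0.05 in +/1013 (3 higher and 7 lower, beside 17.3% of all genes) and 5 in 1013/1013 (2 higher and 3 lower, beside 18.3%).

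Among membrane regulators, Cd55, which speeds the decay of C3 convertases, rose from 2.39 to 13.4 CPM in OPCs to 159 to 353 CPM in SSCs, and its log2 fold change was 4.54, 5.28 and 5.73 in WT, +/1013 and 1013/1013. Cd59a, which blocks the terminal pore, fell from 29.4 to 78.9 CPM in OPCs to 3.12 to 10.5 CPM in SSCs (log2 fold change -3.44, -2.51 and -2.7). Cr1l, also called Crry, rose in +/1013 (1.17) and 1013/1013 (1.04). The edgeR adjusted p of these calls of Cd55, Cd59a and Cr1l was at most 0.00641.

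Of the rest, C1rl, a C1r-like protease gene, rose in +/1013 (log2 fold change 2.26), Colec12, a scavenger collectin gene, rose in +/1013 (1.11), and C1qbp fell in WT (-0.78). C8g, of the terminal complex, fell in 1013/1013 (-2.56). Colec10, Cpn1, C1s2 and C1rb were each called higher in at least 1 genotype at levels of at most 4.75, 2.18, 0.959 and 0.678 CPM. C7, a component of the terminal pore, was called higher in all 3 genotypes and was at 266, 5.68 and 14.3 CPM in WT SSCs, 169, 186 and 219 CPM in +/1013 SSCs and 220 and 49.3 CPM in 1013/1013 SSCs, against 0 to 2 CPM in OPCs. The terminal components C8a, C8b and C9, the lectin Mbl2 and the inhibitor C4bp were at or below 0.0183 CPM in each library.

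C1q, which recognises targets for C1r and C1s, was low. C1qa, C1qb and C1qc reached 3.04, 14.1 and 7.71 CPM in WT OPC replicate 3, 3.21, 14 and 6.47 CPM in 1013/1013 OPC replicate 2, and 5.43, 14.2 and 12 CPM in WT SSC replicate 3, the libraries with high leukocyte markers. In the other 14 libraries none of the C1q genes exceeded 4.64 CPM. Cfp, the properdin gene, was chosen after its values were seen, and was at 55.7, 67.3 and 22.9 CPM in the same 3 libraries and at no more than 5.48 CPM in the others.

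Across the 6 group means of log2(CPM + 1), centred on their mean, the genes nearest to each member among 8278 with at least 10 CPM were found by root mean square difference. The nearest to Serping1 was Cd34 (0.13), followed by Tppp3 (0.14), and the nearest to C1s1 were Igfbp6 (0.14) and Cygb (0.18). For C1ra they were Rpl28 (0.08) and Fgf7 (0.12), for Cfb F3 (0.14) and Angptl1 (0.16), and for C2 Ifitm3 (0.08). For Clu they were Fhl1 (0.11) and Sfrp4 (0.16), for C4b Osbpl3 (0.17) and Adamtsl3 (0.19), for C3 Pi16 (0.58) and Actg1 (0.64), and for Cfd Engase (0.32) and Zfp758 (0.36). The means share libraries and scaling, and C3 and Cfd had the poorest matches. Among the members, C1s1 and C1ra were each other's nearest (0.44), as were Cfb and Serping1 (0.29). The added 1 CPM shrinks differences of genes with low levels, such as Cfb, C2 and Cfd. The group means of Cfb spanned 3.65 on this scale, while its fitted log2 fold changes between the cell types were 4.65, 5.94 and 5.55. Those of Serping1 were 2.27, 3.15 and 3.77, so the nearness of Cfb to Serping1 does not mean like folds.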

How the data were processed

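Bulk RNA-seq of OPCs and SSCs sorted from mouse bone was analysed in 17 libraries. The authors prepared total RNA from pools of sorted cells with the SMART-Seq v4 kit, aligned reads to mm10 with STAR and deposited raw counts per gene made with HTSeq. The submitters' processing notes also name FastQC and DESeq2, and counter settings and versions are not given in the sources used here. Reads assigned to no gene (1.15% to 4.15%) or to several (1.87% to 3.93%) were left out of library sizes. Identifiers were matched to GENCODE M21 symbols and exon lengths (54587 of 55335 matched).

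Counts were tested in R 4.3.3 with edgeR 4.0.16 (TMM, filterByExpr, quasi-likelihood F-test) in 11 comparisons. SSCs against OPCs and the difference of genotype effects used all 17 libraries, and genotypes within a cell type used the libraries of that cell type. Calls needed a Benjamini-Hochberg adjusted p under 0.05 over all genes tested and 1.5-fold, the thresholds of the study's methods. SE is the log2 fold change divided by the square root of F. Alternatives were DESeq2 1.42.0, other scalings, filters and fits, a replicate block, thinning and leaving out each library. The fits were checked on simulated counts. In no pair of libraries did more than 3.02% of the genes with a count in either have equal counts in both. All 9 members were named in the comparisons, with complement genes that were called, the copies C4a, C1rb and C1s2, C1q, and the 2 nearest genes by pattern. A result of the wider list is not reported here. The members, the other lists and the markers were chosen with earlier results of these data known. Depth limits precision for Cfb and Cfd, and intervals cover the spread between libraries.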

Additional observations from a re-analysis of the deposited data

How the results depend on the processing

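Members called in SSCs against OPCs numbered 6, 8 and 6 in WT, +/1013 and 1013/1013, and 3 to 7, 5 to 8 and 5 to 7 when single libraries were left out. The WT count was 3 without WT OPC replicate 2 or WT SSC replicate 1, and the +/1013 count 5 without +/1013 OPC replicate 3. Calls over all genes fell in the same fits. They went from 11.4% to 6.68% and 7.05% in WT, and from 12.5% to 7.43% in +/1013. In SSCs DESeq2 called 5 members in +/1013 and 2 in 1013/1013 against WT, where edgeR called 0, and leaving out libraries gave 0 to 2 in 1013/1013, with 2 without 1013/1013 SSC replicate 2. The cause was not tested.

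The wider complement list had 7, 6 and 8 calls in SSCs against OPCs, under alternatives chosen after seeing the data. Brackets give the share of all genes called, for DESeq2 out of the genes with a count. In WT the list had 15 with DESeq2 (12.4%), 12 with the bias-adjusted test (16.3%), 4 with a replicate block (10.1%) and 3 to 10 with libraries left out. It had 3 without WT OPC replicate 3 (7.26%) or WT SSC replicate 3 (7.66%). In +/1013 it had 11 with DESeq2 (13.7%), 11 with the bias-adjusted test (17.3%) and 3 to 8 with libraries left out. It had 3 without +/1013 OPC replicate 2 (7.94%) or 3 (7.43%). In 1013/1013 it had 5 with at least 10 counts in every library, 2 with only the groups compared and 4 to 9 with libraries left out. DESeq2 called 5 and 2 of the list in +/1013 and 1013/1013 against WT SSCs and 3 in the difference of 1013/1013 effects, and leaving out 1013/1013 SSC replicate 2 gave 1 (range 0 to 1), where the main count was 0.

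Of 1066 alternative values of the log2 fold changes printed, 14 changed sign, none past the threshold. With libraries left out, SSC against OPC in +/1013 ranged from -0.25 to 0.72 for Cfd. Against WT in SSCs, +/1013 ranged from -0.49 to 0.23 for C4b, -2.33 to 0.91 for Cfd and -0.04 to 0.95 for Clu, and 1013/1013 from -0.15 to 0.91 for C3, -0.47 to 3.93 for Cfd and -1.56 to 1.38 for Clu. C4b in +/1013 SSCs was 0.04 with upper-quartile scaling and 0.01 with all 17 libraries in 1 fit. With a replicate block Cfd was 0.21 in +/1013 and Clu -0.21 in 1013/1013 SSCs. The replicate block left the member counts at 6, 8 and 6, and 0 between genotypes. Within a cell type, deviations of same-numbered libraries of different genotypes correlated at -0.23 to 0.27 in OPCs and -0.08 to 0.1 in SSCs. Those of differently numbered libraries correlated at -0.3 to 0.34 and -0.1 to 0.12. The replicate 1 libraries of OPCs correlated with each other at 0.12 to 0.27. Whether same-numbered OPC and SSC libraries came from the same mice was not tested. Cfb and Cfd could not be tested where at least 10 counts in every library were required with OPCs, and at 0 to 1.4 CPM in OPCs depth limits their folds. Another scaling moved the median of all genes by over 0.1 in 1 comparison, the difference of 1013/1013 effects between cell types, from -0.39 to -0.26 with upper-quartile scaling.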
